A study of Mus musculus with 32 samples.

Results

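Diethylstilbestrol (DES) is a synthetic estrogen, and the response to it that was still measurable in uteri carrying a conditional knockout (cKO) of Esr1 is described here. Esr1 encodes estrogen receptor alpha. The 4 samples labelled DES Esr1 cKO were compared with the 4 labelled Co Esr1 cKO, in which Co stands for the vehicle control, so that 8 of the 32 arrays of the series entered the comparison and all 17145 annotated genes above a floor on signal were tested. All 8 uteri came from CD-1 females aged 5 postnatal days, and total RNA of each was hybridised to 1 single-colour Agilent mouse array. The 8 arrays of Esr1 wild-type (WT) uteri, 4 with vehicle and 4 with DES, served as the reference for what was kept and what was lost, and they share no array with the cKO comparison. The remaining 16 arrays were of DES-treated Foxa2 and Foxo1 lines and entered only the filter and the choice of probe per gene. No source used here names the Cre driver, the dose and days of DES or the litters, so the cell types that lacked the receptor cannot be stated. The replicates are called biological in the series' design text.

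Estrogen receptor alpha is a ligand-activated transcription factor that binds estrogen response elements in DNA, directly or through other factors such as AP-1. In the uterus it is made by the epithelium, the stroma and the smooth muscle, and stromal receptor can act on the epithelium through secreted factors. Estrogens given around birth change how the mouse uterus forms its glands and its epithelium, and lactoferrin, lipocalin 2 and the complement proteins are classic secreted products of the estrogen-treated epithelium.

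A level is a log2 intensity minus the 75th percentile of its array, so 0 is that percentile, and a change is DES minus vehicle on that scale. Levels are not compared between genes, because probes differ in brightness. The 75th percentiles of the 8 cKO arrays lay between 1302 and 1787 intensity units, and replicates of these arrays correlated at 0.987 to 0.994 across genes. A gene is called dim in a group when all 4 arrays lie under the 30th percentile of their array, which was at log2 levels from -6.245 to -6.035 in the cKO arrays, and its change is then given as a bound. A gene is called at an adjusted p under 0.05 (limma, Benjamini-Hochberg over all 17145 genes). 1 array of the WT vehicle group, replicate 4, stood apart: its level of Xist, the RNA that coats the inactive X chromosome, was -2.35, against 3.56 to 4.02 in the other 3 and 2.54 to 3.86 in the cKO arrays. The main counts that rest on the WT arrays are therefore also given without it, and the value of a gene where leaving it out changed its call or clearly moved it. Of the 144 genes named by rule, 139 had the same WT call and 137 the same call of the difference between the genotypes without that array.

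The Esr1 transcript itself was measured in every sample and was still abundant in the cKO uteri. Its level was 2.82, 2.51, 2.43 and 2.46 with vehicle and 0.09, 0.46, 0.30 and 0.25 with DES. All 4 DES arrays lay under all 4 vehicle arrays. The WT levels were 3.24, 2.85, 2.65 and 4.43 with vehicle and 2.28, 2.12, 2.35 and 2.17 with DES, so that the genotypes overlapped under vehicle and did not overlap under DES, where cKO was lower. Esr1 fell by 2.28 ± 0.12 (SE, n = 4 and 4) on the log2 scale in cKO, a 4.86-fold change (adjusted p = 2.23e-05). All 11 of its probes fell, by between 2.16 and 2.31. Whether probes of 1 gene, here and below, are repeat spots of 1 sequence was not tested, so counts of probes may not be independent. No source used here places the probes relative to the deleted exons, so these levels do not check the deletion. The fall was larger than in WT, where it was -1.06 (-0.69 without WT vehicle replicate 4), and the difference of -1.22 ± 0.39 between the genotypes was called (adjusted p = 0.0261, and 2.86e-05 without WT vehicle replicate 4).

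DES still changed 4304 genes in the cKO uteri, 25.1% of those tested, with 2127 higher (12.4%) and 2177 lower (12.7%). Changes of at least 2-fold were uneven, with 793 genes higher (4.63%) and 325 lower (1.9%), and 1118 in all (6.52%). In 5286 genes (30.8%) the 4 DES and the 4 vehicle arrays did not overlap, and 4094 genes (23.9%) were both called and free of overlap. The split by direction depended on the scaling: with the array median in place of the 75th percentile, 2563 of 3790 called genes (67.6%) were higher, against 49.4% in the split above. The cKO calls come from a fit of the 8 cKO arrays alone and the WT calls from a fit of all 16 Esr1 line arrays, so the numbers of calls are not on one footing: in the 16-array fit cKO had 2231 calls, 1406 higher and 825 lower. In WT uteri 10040 genes (58.6%) were called, 4158 higher (24.3%) and 5882 lower (34.3%), and 11084 (64.6%) without WT vehicle replicate 4. The median change of all genes was -0.04 in cKO and -0.16 in WT, and scaling on the array median moved the WT value to 0.09, with 57.4% in place of 41.4% of the WT calls higher.

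**Figure D1:**
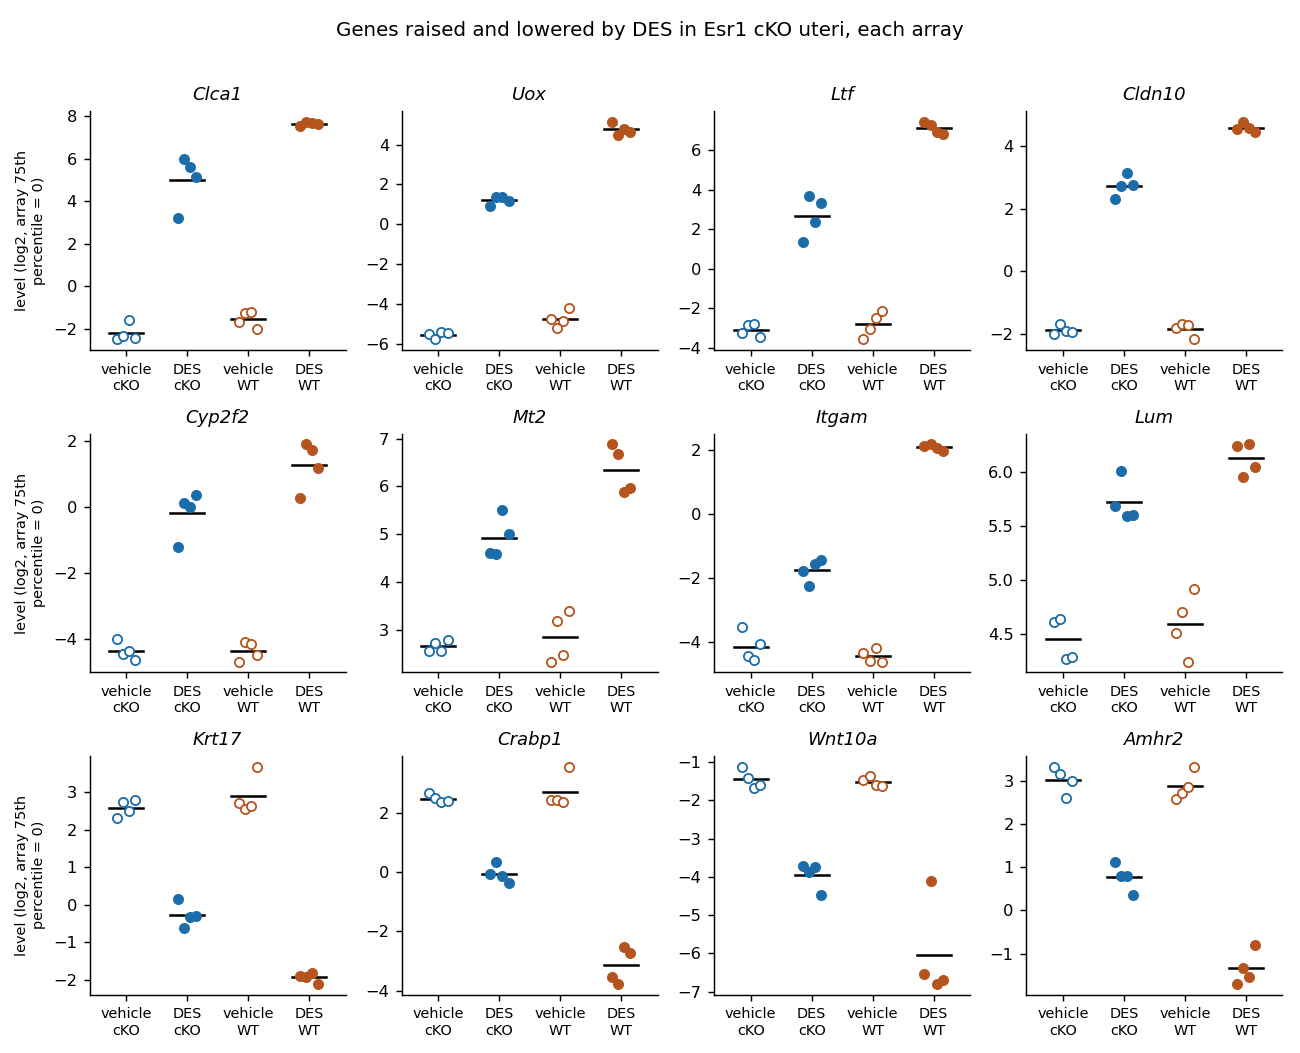
Levels (log2, 0 is the 75th percentile of the array) of 12 genes in each array of the 4 Esr1 line groups, with open points for vehicle, filled points for DES and a bar for the mean of 4 arrays. In the cKO arrays on the left of each panel, DES and vehicle do not overlap for any of the 12 genes, and for Uox, Ltf, Cldn10 and Krt17 the DES levels stay between the vehicle level and the DES level of the WT arrays.

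The genes that rose most in cKO included secreted proteins and enzymes. Clca1, which mucous cells secrete and which regulates chloride channels, was at -2.50, -2.32, -1.59 and -2.45 with vehicle and at 3.23, 6.01, 5.61 and 5.17 with DES. Replicate 1 was the lowest of the DES arrays, and the groups did not overlap. Clca1 rose by 7.22 ± 0.56, a 149-fold change (adjusted p = 0.000117), against 9.21 in WT. Uox, urate oxidase of purine breakdown, was at -5.53, -5.79, -5.43 and -5.47 with vehicle and at 0.94, 1.37, 1.37 and 1.16 with DES. These groups were tight and far apart, and the rise of 6.76 ± 0.13 had an adjusted p of 1.84e-07. Ppp2r2c, a regulatory subunit of protein phosphatase 2A, rose by 7.01 ± 0.44 (adjusted p = 4.65e-05) from vehicle levels between -6.00 and -4.10 to DES levels between 1.18 and 2.35.

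Lactotransferrin (Ltf), the iron-binding defence protein of uterine secretions, was at -3.27, -2.86, -2.78 and -3.46 with vehicle and at 1.34, 3.67, 2.35 and 3.34 with DES. Replicates 2 and 4 were high and replicate 1 low among the DES arrays, with no overlap between the groups. Ltf rose by 5.77 ± 0.48 (54.4-fold, adjusted p = 0.000145) in cKO and by 9.93 in WT. Lcn2, the siderophore-binding lipocalin 2, was at -5.35, -5.78, -5.59 and -6.02 with vehicle and at -1.99, -0.53, -0.90 and 0.19 with DES. Every DES array was higher, and the change of 4.88 ± 0.41 (adjusted p = 0.000163) compares with 10.92 in WT. Cbr2, a carbonyl reductase, and Fam3b, a secreted cytokine-like protein, rose by 4.94 and 4.97. In both genes replicate 1 of the DES cKO group was the low array, at 4.66 against 5.84 to 5.93 for Cbr2 and at -3.54 against -2.31 to -2.09 for Fam3b.

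Pitx1, a homeobox transcription factor of the hindlimb and pituitary, was at -6.79, -5.98, -7.46 and -6.25 with vehicle and at -1.41, -2.12, 0.68 and -0.73 with DES. It rose by 5.72 ± 0.59 (adjusted p = 0.000415), the DES arrays were widely spread, and the rise was larger than the 1.93 in WT (1.47 and not called without WT vehicle replicate 4, adjusted p = 0.0768) by 3.80 ± 0.95 (adjusted p = 0.0063, and 0.00264 without WT vehicle replicate 4). The vehicle levels of Pitx1 in cKO lay near or under the floor of signal. Their mean was -6.62, against -4.69 in WT, and the DES means were -0.90 in cKO and -2.76 in WT. Part of the difference between the genotypes for Pitx1 thus lay in the vehicle groups. Tmem213, which encodes a transmembrane protein, rose by 4.90 ± 0.36. 3 further genes of the 12 with the largest rise were dim in the vehicle group and have only bounds: Serpinb11, a clade B serpin, rose by at least 5.92 (adjusted p = 0.000117), Unc5cl, a death-domain protein, by at least 4.95 (adjusted p = 3.61e-05), and Trdn, the triadin of muscle calcium stores, by at least 3.73 (adjusted p = 8.54e-06).

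Promoter sequence is shown for 4 raised genes, to show how the motifs counted here lie in single windows: 3 windows hold a match, and that of Ihh holds none of the motifs searched. The windows run from 250 bases before to 50 bases after the RefSeq start of the gene, on build GRCm38.p6, and capitals mark a motif on either strand. The motifs searched were AP-1 (TGANTCA), C/EBP (TTGCNNAA), STAT (TTCNNNGAA), FOXA (TGTTTAC) and the full palindromic estrogen response element, each on both strands. The window of Serpinb11 at chr1:107362064-107362363 (+ strand) has AP-1 matches that begin 181 and 76 bases before the start. The window of Prok2 at chr6:99726343-99726642 (- strand) has an AP-1 match 67 bases before the start, the window of Ltf at chr9:111019042-111019341 (+ strand) has a C/EBP match 75 bases before it, and the window of Ihh lies at chr1:74951623-74951922 (- strand).
Serpinb11: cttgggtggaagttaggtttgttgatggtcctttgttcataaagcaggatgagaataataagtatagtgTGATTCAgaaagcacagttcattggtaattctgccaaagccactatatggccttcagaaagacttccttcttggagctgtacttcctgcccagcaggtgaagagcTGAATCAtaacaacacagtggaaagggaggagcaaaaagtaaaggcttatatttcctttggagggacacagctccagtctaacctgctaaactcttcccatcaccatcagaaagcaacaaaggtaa
Prok2: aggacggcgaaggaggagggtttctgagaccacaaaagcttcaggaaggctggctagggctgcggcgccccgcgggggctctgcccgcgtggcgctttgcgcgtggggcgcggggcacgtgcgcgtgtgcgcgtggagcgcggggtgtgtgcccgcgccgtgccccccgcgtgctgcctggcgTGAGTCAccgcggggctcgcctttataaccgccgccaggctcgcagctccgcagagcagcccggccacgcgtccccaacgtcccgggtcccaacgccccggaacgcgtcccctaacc
Ltf: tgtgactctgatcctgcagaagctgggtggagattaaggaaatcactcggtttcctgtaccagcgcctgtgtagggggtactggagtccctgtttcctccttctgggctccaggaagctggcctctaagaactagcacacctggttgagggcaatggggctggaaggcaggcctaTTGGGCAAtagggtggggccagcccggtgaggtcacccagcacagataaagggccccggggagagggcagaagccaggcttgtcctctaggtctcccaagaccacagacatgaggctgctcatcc
Ihh: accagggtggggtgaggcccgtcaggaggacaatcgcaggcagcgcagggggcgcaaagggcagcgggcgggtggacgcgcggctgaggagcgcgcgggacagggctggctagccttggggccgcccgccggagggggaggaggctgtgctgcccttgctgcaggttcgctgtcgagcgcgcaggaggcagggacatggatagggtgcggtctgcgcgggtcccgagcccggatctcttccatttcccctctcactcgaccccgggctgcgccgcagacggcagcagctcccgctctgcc

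Of the 13708 tested genes with such a window, 7.38% held an AP-1 match, against 13.0% (80 of 616) of the genes raised at least 2-fold in cKO, 11.7% (30 of 257) of those lowered at least 2-fold in cKO and 11.8% of 1895 raised at least 2-fold in WT. The AP-1 share was 7.35% (176 of 2394) in genes lowered at least 2-fold in WT and 11.2% (85 of 759) in genes raised at least 2-fold in WT and not called in cKO, so a higher share was also found where the response was lost. The shares for C/EBP were 10.8% of all tested genes, 15.4% of the raised and 14.8% of the lowered cKO genes. Those for STAT were 8.61%, 10.7% and 8.95%, and those for FOXA 3.36%, 4.55% and 6.23%. The full estrogen response element was in 6 of the 13708 tested genes (0.0438%), in 0 of the 616 raised and 0 of the 257 lowered cKO genes and in 3 of the 1895 genes raised in WT, and in 23 of all 32851 windows (0.07%). These are descriptions of letters in a short window, with no test, and a gene with several windows counts once if any of them holds the motif. AP-1 matches were found at 7.81% and C/EBP matches at 10.8% of all windows of this length.

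The largest falls in cKO included keratins, homeobox and Wnt genes and a retinoid-binding protein. Krt17, a keratin of basal and stressed epithelium, was at 2.30, 2.74, 2.51 and 2.78 with vehicle and at 0.14, -0.62, -0.32 and -0.30 with DES. The groups were apart by more than their own spread, and Krt17 fell by 2.86 ± 0.18 (7.27-fold, adjusted p = 3.90e-05), against -4.84 in WT. Crabp1, the cellular retinoic acid-binding protein 1, was at 2.66, 2.49, 2.36 and 2.40 with vehicle and at -0.06, 0.33, -0.14 and -0.36 with DES, a change of -2.53 ± 0.15 (adjusted p = 3.51e-05). Wnt10a, a Wnt ligand of skin appendages, was at -1.12, -1.41, -1.67 and -1.59 with vehicle and at -3.71, -3.87, -3.75 and -4.48 with DES, a change of -2.51 ± 0.19 (adjusted p = 0.000117). All DES arrays were low for these genes, and none overlapped the vehicle arrays.

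Lce3c, a protein of the cornified envelope, changed by -4.15 ± 0.42 from vehicle levels between -0.70 and -0.45 to DES levels between -5.65 and -3.40. The homeobox gene Msx3 changed by -2.65, the hair-sheath keratin Krt25 by -2.59, the ubiquitin ligase Marchf11 by -2.56 and the zinc finger gene Zfp819 by -2.42, each with adjusted p-values between 8.36e-05 and 0.000796. The remaining 4 of the 12 genes with the largest fall were dim with DES, so that only a bound is known. That bound was -3.10 for Qrfpr, the receptor of the neuropeptide QRFP, -2.08 for Lamp5, -0.48 for Islr2 and -0.38 for Tmem150c.

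Most of the genes listed here as estrogen-responsive in the uterus rose in the cKO. Of 29 measured genes listed as estrogen-responsive, 23 rose (79.3%), 1 fell and 5 were not called, beside 12.4% of all genes higher. This list and the others were chosen with earlier results of these data known, so their shares are descriptions and not independent support. The counts of the other lists are to be read against the same share and the 12.7% of all genes lower. The median change of the 29 genes was 1.62, against 3.43 in WT and -0.04 for all genes in cKO. By the test of the difference, 21 of the 29 changed less in cKO than in WT, and 21 did without WT vehicle replicate 4. That test called 6023 genes (35.1%) in all. Aqp8, a water channel of glands, rose by 4.38 ± 0.54 (adjusted p = 0.00098) from levels between -5.06 and -3.59 to levels between -0.91 and 1.53. The list holds 3 peptidylarginine deiminases, which convert arginine to citrulline in proteins, with changes of 3.60 for Padi2, 3.32 for Padi1 and 2.87 for Padi4. Inhbb, a subunit of activin and inhibin, was at -3.09, -3.04, -3.31 and -2.80 with vehicle and at -0.38, -0.45, -0.58 and -0.66 with DES. Its rise of 2.54 ± 0.12 (adjusted p = 1.74e-05) rests on the brighter of 2 probes, and the other probe had the opposite sign.

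Other listed genes of this group rose less. Greb1, an estrogen receptor cofactor, rose by 2.75, Gjb2, the gap junction protein connexin 26, by 2.38, and Muc1, a membrane mucin, by 1.62. Pgr, the progesterone receptor, was not called in cKO at a change of 0.09, and in WT it rose by 0.87. The small proline-rich genes of this list were split: Sprr2f rose by 3.08 and Sprr2d, dim with vehicle, was called higher, whereas the changes of Sprr2a1, Sprr2b, Sprr2e and Sprr2g were between 0.06 and 0.27 and not called. These genes are close copies of each other, and how far their probes tell them apart was not tested. The member that fell was the ligand gene Wnt4, at -1.05.

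Secreted defence proteins rose in 19 of 31 measured genes (61.3%), with 3 lower and 9 not called, and their median change was 1.26 in cKO and 2.09 in WT. Haptoglobin (Hp), which binds free haemoglobin, was at -2.92, -1.16, -3.15 and -3.28 with vehicle and at 0.52, 1.32, 1.56 and 1.20 with DES. Vehicle replicate 2 was the high array of its group, and the rise was 3.78 ± 0.47 (adjusted p = 0.000994). In the same vehicle array the summed level of 9 adipocyte genes was 4.08, where the other 3 vehicle arrays reached no more than 0.15, and the part of fat in the Hp level was not tested. Complement factor B (Cfb) was at -0.15, 0.05, 0.12 and -0.17 with vehicle and at 1.88, 3.15, 3.21 and 2.94 with DES, a rise of 2.83 ± 0.28 (adjusted p = 0.000346). The chemokine-like Cxcl17 rose by 2.79, the protease inhibitor Slpi by 2.27 and the peptidoglycan-binding Pglyrp1 by 2.07. Wfdc18 fell by 2.12, the bactericidal lectin Reg3g, dim with DES, was called lower, and the interleukin 1 antagonist Il1rn fell by 1.16 with 1 of 2 probes of that sign.

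Transport genes moved with the secreted products in part. Of 34 measured ion and water transport genes 13 rose, 2 fell and 19 were not called, with a median change of 0.35 in cKO and 1.47 in WT. Carbonic anhydrase 12 (Car12), which makes bicarbonate at the cell surface, was at -4.40, -4.71, -4.22 and -4.21 with vehicle and at -1.15, -0.78, -0.94 and -0.37 with DES. It rose by 3.57 ± 0.18 (adjusted p = 2.23e-05), and Atp6v0a4, a subunit of the proton pump, rose by 2.82 ± 0.19 (adjusted p = 6.05e-05). The aquaporins Aqp3 and Aqp5 rose by 2.62 and 0.94. The chloride channel Cftr changed by 0.10 and was not called, and in WT it rose by 1.48.

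Genes of simple epithelium rose in 25 of 30 measured genes (83.3%), with 1 lower and 4 not called. Their median change was modest, at 0.68 in cKO and 1.46 in WT. The claudin Cldn10 led the list, at -1.98, -1.68, -1.89 and -1.92 with vehicle and at 2.30, 2.72, 3.14 and 2.74 with DES, a rise of 4.59 ± 0.17 (adjusted p = 7.43e-06). The epithelial transcription factors Elf3 and Ovol2 rose by 1.85 and 1.63, whereas general markers rose less, with 0.93 for the keratin Krt19, 0.66 for E-cadherin (Cdh1), 0.56 for Epcam and 0.38 for Krt8. Cldn6, a claudin of embryonic epithelium, fell by 1.84. The summed level of the 30 genes was 7.38 to 7.48 with vehicle and 7.86 to 8.27 with DES, with no member dim in either group. In whole-uterus RNA more cells of a type and more RNA per cell cannot be told apart.

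Stratified and cornified epithelial genes were mixed, with 12 of 32 higher, 6 lower and 14 not called. Calml3, a calmodulin-like protein of epithelium, rose by 3.78 ± 0.28 (adjusted p = 9.92e-05), and Krt15, a basal keratin, rose by 1.95. Serpinb5, also called maspin, was dim with vehicle and rose by at least 1.57 (adjusted p = 5.25e-06). Trp63, the transcription factor of basal epithelium, fell by 0.53, Krt14 by 0.67 and Krt5 by 0.95. With the array median as the scale, 2 in place of 6 of these genes were lower, and between 2 and 6 were in the fits without 1 array, with 2 without vehicle replicate 2 or 3 and 3 without vehicle replicate 4 or DES replicate 1 or 4.

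Serpins and serine proteases rose in 14 of 33 genes and fell in 7, with a median change of 0.40 in cKO and 1.40 in WT. Tmprss4, a transmembrane serine protease, was at -2.49, -2.84, -2.34 and -2.64 with vehicle and at -0.21, 0.48, 0.33 and 0.53 with DES, a rise of 2.86 ± 0.18 (adjusted p = 4.71e-05). Serpinb7 was dim with vehicle and rose by at least 2.35 (adjusted p = 0.000496). Serpina9, a serpin of clade A, rose by 2.21 in cKO and, from dim vehicle levels, by at least 8.47 in WT. The urokinase gene Plau fell by 1.20 in cKO and was not called in WT, at -0.12.

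Genes that pattern the Mullerian duct and carry the Wnt signal changed in both directions: 14 of 41 measured genes fell (34.1%, beside 12.7% of all genes), 8 rose (19.5%, beside 12.4%) and 19 were not called. With the array median as the scale 11 were lower and 11 higher. Their median change was 0.10 in cKO and -1.14 in WT, and 25 of the 41 (26 without WT vehicle replicate 4) differed between the genotypes with the cKO change the higher. Amhr2, the receptor of anti-Mullerian hormone, was at 3.33, 3.15, 2.60 and 3.00 with vehicle and at 1.13, 0.80, 0.81 and 0.37 with DES. It fell by 2.24 ± 0.20 (adjusted p = 0.0002), against -4.22 in WT. Among further members, picked after their values were seen, the cKO change was -1.06 for Axin2, -0.85 for Nkd1 and -1.25 for Nkd2, which restrain Wnt signalling, and -1.08 for the transcription factor Lef1, with the sign of 2 of its 3 probes. The WT changes were -2.85, -2.28, -3.45 and -5.70. Lgr5, a receptor of the same list, was not called in cKO at -0.54. The ligand Wnt7a, needed for uterine identity, was not called in cKO at 0.27 and fell by 3.74 in WT, and Hoxa10 changed by -0.30 and -1.58.

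Some members of this group rose in cKO. Eya1, a transcriptional coactivator, was at -3.66, -3.53, -3.48 and -3.37 with vehicle and at -2.03, -1.04, -1.68 and -1.70 with DES, a rise of 1.89 ± 0.19 (adjusted p = 0.00041), and the difference from WT was 0.36 with a 95% interval of -0.23 to 0.94. Lgr6, a receptor of R-spondins, was dim with vehicle and rose by at least 1.59 (adjusted p = 6.63e-05). Wif1, a secreted Wnt inhibitor, was dim with vehicle in cKO and in both WT groups, and it rose by at least 0.66 in cKO (adjusted p = 0.00988). The paired-box gene Pax8 rose by 1.09.

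Among 31 nuclear receptors and coregulators 4 rose, 7 fell and 20 were not called. The share of higher genes was 12.9%, close to the 12.4% of all genes, and that of lower genes was 22.6%, beside 12.7%. With the array median as the scale 5 were higher and 3 lower, and without vehicle replicate 3, DES replicate 3 or DES replicate 4 there were 2 higher. Thrb, a thyroid hormone receptor, rose by 1.29 ± 0.13 with 2 of 3 probes of the same sign, and Nrip1, a corepressor of nuclear receptors, rose by 0.67 ± 0.11, also with 2 of 3 probes. Nr5a2, an orphan receptor, fell by 1.09 ± 0.18. Esr2, which encodes estrogen receptor beta, changed by 0.59 and was not called, and Gper1, a membrane estrogen receptor, changed by 0.44 and was not called. The forkhead genes targeted elsewhere in the series also moved: Foxa2, a regulator of uterine glands, rose by 4.69 ± 0.43 (adjusted p = 0.000229) from levels between -7.13 and -5.03 to levels between -1.93 and -0.90, with all 10 probes of the same sign, and Foxo1 rose by 0.32 ± 0.07 (adjusted p = 0.0169, and 0.0523 without vehicle cKO replicate 2). In WT they rose by 8.02 and 0.95.

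Of 28 early-response genes 6 were higher (21.4%, beside 12.4% of all genes) and 4 lower (14.3%, beside 12.7%). Without vehicle replicate 2 or 3 there were 4 higher and 2 lower, there were 5 and 2 without DES replicate 3, and with the array median as the scale 8 higher and 2 lower. Klf4, a zinc finger factor of differentiating epithelium, rose by 1.69 ± 0.26, the Myc family member Mycl by 1.56 ± 0.19, and Fos, a subunit of AP-1, by 1.45 ± 0.19 with 10 of 11 probes of the same sign. Ier3, an early-response gene of cell survival, rose by 0.90 ± 0.19. Myc fell by 0.53 and Fosb by 0.83, and the latter rose by 1.85 in WT.

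Proliferation genes were close to their vehicle level in cKO. Of 34 measured genes 0 rose, 3 fell and 31 were not called, and the median change was -0.21. In WT 32 of the 34 fell with a median of -1.33, and the difference was called for 28 genes, all with the cKO change the higher. Without WT vehicle replicate 4 these counts were 34 and 29. Ccnd1, cyclin D1 of the entry into the cell cycle, was at 3.15, 3.26, 3.21 and 3.25 with vehicle and at 2.86, 2.55, 2.38 and 2.30 with DES, a change of -0.70 ± 0.12 (adjusted p = 0.00481). Mki67, the Ki-67 antigen, changed by -0.17 and was not called, against -1.60 in WT. The falls of Ccne1 and Kif11 were lost in most fits without 1 of the 8 arrays, so that between 1 and 7 members were lower in those fits, the 7 without DES replicate 2.

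Of 42 growth factors and their binding proteins 12 fell (28.6%, beside 12.7% of all genes) and 8 rose (19%, beside 12.4%). With the array median as the scale 7 were lower and 8 higher, and without vehicle replicate 2 or 3 or DES replicate 4 there were 5 higher. Igfbp6, which binds insulin-like growth factor 2, rose by 1.60 ± 0.14 (adjusted p = 0.000192), Bmp4 by 0.93 and Igf1 by 0.33. Follistatin (Fst), which binds activin, was at -3.85, -3.77, -4.33 and -4.37 with vehicle and at -6.01, -5.48, -5.90 and -5.69 with DES. It fell by 1.69 ± 0.18 (adjusted p = 0.000462), Bmp7 by 1.09 ± 0.23 and the hepatocyte growth factor Hgf by 1.00 with 2 of 3 probes of that sign. Several receptors and ligands of the epidermal growth factor family were not called, with 0.15 for Egfr, 0.19 for Erbb2 and 0.01 for Tgfa.

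Enzymes of nitrogen and polyamine metabolism were led by Uox, with 8 of 35 genes higher and 9 lower, or 4 lower with the array median as the scale. Arginase 1 (Arg1) was at -3.54, -4.51, -5.03 and -4.81 with vehicle and at -1.86, -0.79, 0.11 and -0.62 with DES, a rise of 3.68 ± 0.45 (adjusted p = 0.000944) that compares with 9.87 in WT. Aoc1, which oxidises histamine and putrescine, rose by 3.22 ± 0.47 in cKO and by 10.49 in WT. The cystine carrier Slc7a11 rose by 2.75 ± 0.21, and its difference from the WT rise of 3.43 was -0.68 with a 95% interval of -1.91 to 0.54, and -0.13 without WT vehicle replicate 4. Phgdh, of serine synthesis, fell by 0.96. Among 34 genes of the secretory pathway 6 rose, 2 fell (5 without DES replicate 2) and 26 were not called: the disulfide isomerase family member Agr2 rose by 2.44 ± 0.24 and the mucin glycosyltransferases Gcnt3 and Galnt3 by 1.77 and 0.93, while the chaperone Hspa5 was not called at -0.31.

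Xenobiotic and retinoid enzymes moved in both directions, with 16 of 43 higher and 9 lower. Cyp2f2, a cytochrome P450 of airway epithelium, was at -4.01, -4.44, -4.37 and -4.64 with vehicle and at -1.21, 0.13, 0.01 and 0.36 with DES, a rise of 4.19 ± 0.33 (adjusted p = 0.000117). Sult1d1, a sulfotransferase, rose by 2.19 and Gsta2, a glutathione transferase, by 2.14. Among those that fell, the change was -1.52 for Cyp26b1, which degrades retinoic acid, and -1.44 and -1.38 for Aldh1a3 and Aldh1a1, which make it, and Cyp1b1, an estrogen-oxidising cytochrome, fell by 1.79. Among 31 genes of cholesterol and fatty acid metabolism 5 rose and 4 fell (1 without vehicle replicate 3 or 4 or with the array median as the scale, and 2 without vehicle replicate 2 or DES replicate 2): the acyl-CoA synthetase Acsl4 rose by 0.82 ± 0.10 and the malic enzyme Me1 by 0.59 ± 0.11, Elovl3 was dim with vehicle and rose by at least 0.13 (adjusted p = 0.00693), and Cyp51, of cholesterol synthesis, fell by 0.69 ± 0.13.

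Glucocorticoid-responsive genes rose in 9 of 23 cases (39.1%), with 1 lower and 13 not called. Metallothionein 2 (Mt2), which binds zinc, was at 2.56, 2.72, 2.56 and 2.78 with vehicle and at 4.61, 4.58, 5.50 and 5.01 with DES, a rise of 2.27 ± 0.20 (adjusted p = 0.0002). Mt1 rose by 1.71 ± 0.16 with all 11 probes of the same sign, and the kinase Sgk1 rose by 1.29 ± 0.17. Fkbp5 and Per1, further targets of the glucocorticoid receptor, were not called at -0.17 and -0.09. The members that rose include genes that respond to metals, estrogens and cytokines as well.

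Interferon-induced genes rose in 17 of 30 cases (56.7%), with 1 lower and 12 not called, at a median change of 0.43 in cKO and 1.15 in WT. The transcription factor Irf7 was at -5.03, -4.45, -4.77 and -4.59 with vehicle and at -3.75, -3.60, -3.21 and -2.57 with DES, a rise of 1.43 ± 0.26 (adjusted p = 0.00525). Ifit3, an antiviral effector, rose by 1.27 ± 0.27, the guanosine triphosphatase Ifi47 by 1.01 ± 0.14 and tetherin (Bst2) by 1.01 ± 0.13. The interferon target Rsad2 fell by 0.74, and Irf1 and Ifit2 were not called.

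Cytokine and STAT-response genes rose in 11 of 30 cases and fell in 4. Csf3, the granulocyte colony-stimulating factor, was at -7.31, -6.68, -6.96 and -6.00 with vehicle and at -3.74, -3.33, -2.56 and -2.66 with DES, a rise of 3.66 ± 0.34 (adjusted p = 0.000269). Stat5a, a transcription factor of cytokine signalling, rose by 1.60 ± 0.17. Among those that fell were 2 chemokine genes, Cxcl5 at -2.15 ± 0.21 (adjusted p = 0.000305) and Cxcl1 at -1.22 ± 0.23 (adjusted p = 0.00623). Their proteins attract neutrophils. Chemokine genes did not all fall: Cxcl15, of the gland-associated list, was dim with vehicle and rose by at least 0.99 (adjusted p = 0.0157).

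**Figure D2:**
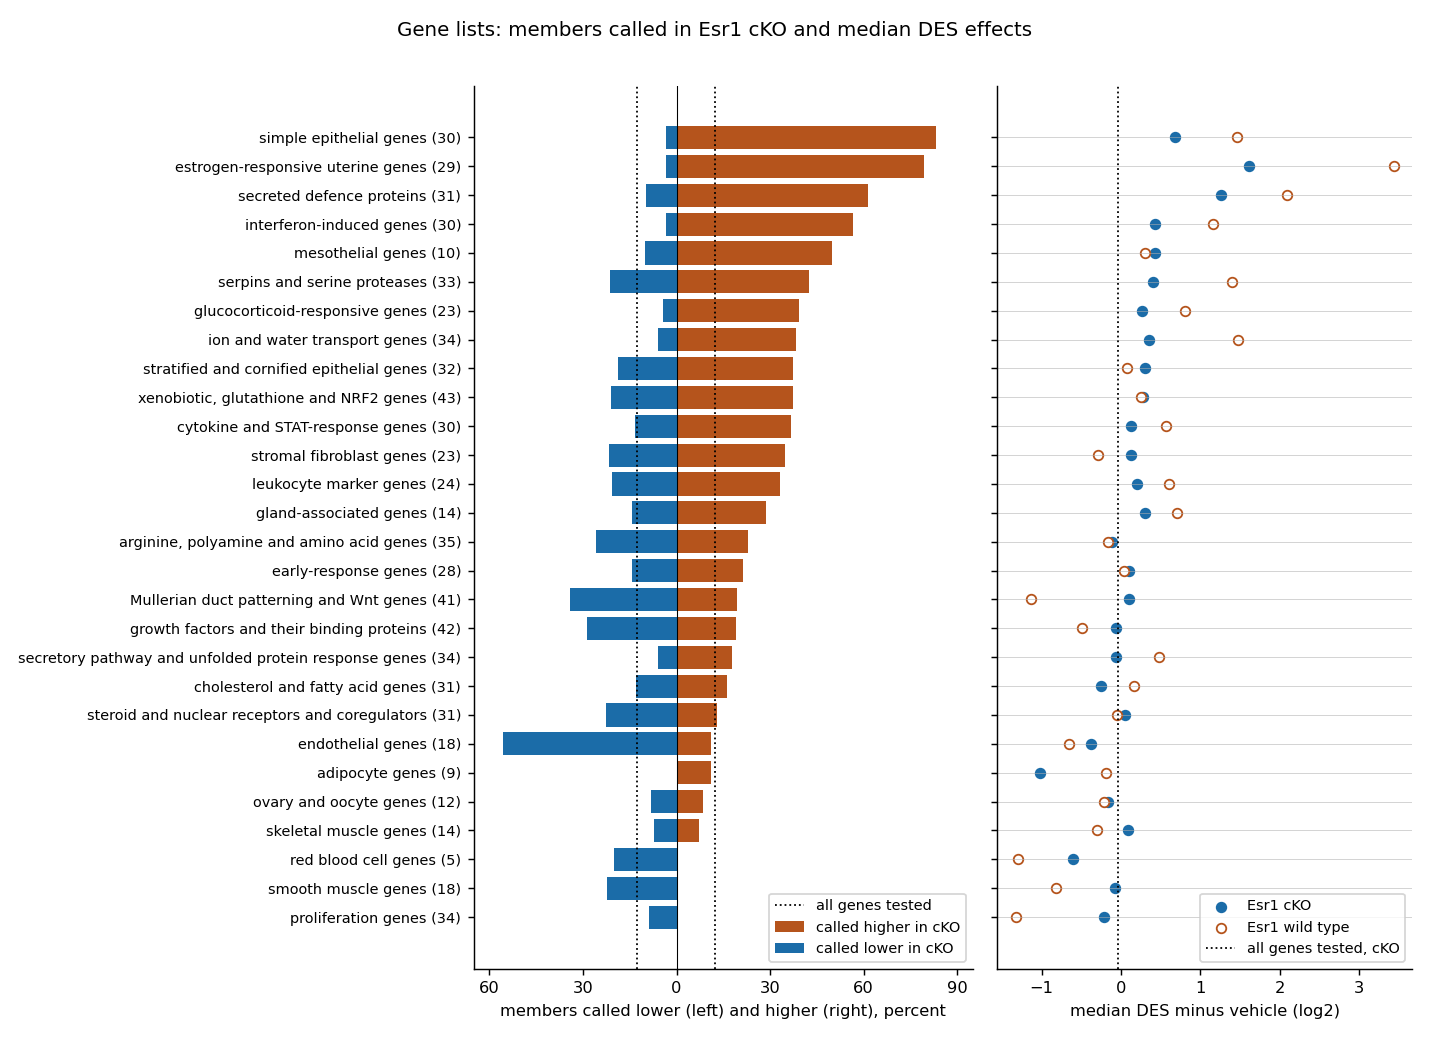
For each of 28 gene lists, with the number of measured members in brackets, the left panel plots the percent of members called lower and higher with DES in Esr1 cKO (dotted lines at 12.7% and 12.4%, the shares of all genes tested) and the right panel the median change (log2) in cKO and WT. Simple epithelial and estrogen-responsive genes have the widest bars to the right, endothelial genes the widest to the left, and the proliferation genes have no bar to the right.

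Markers of other cell types were counted in the same way. Of 24 leukocyte marker genes 8 rose (33.3%, beside 12.4% of all genes), 5 fell (20.8%, beside 12.7%) and 11 were not called. There were 4 higher and 5 lower without vehicle replicate 3, 4 and 4 without vehicle replicate 4, and 6 and 3 without vehicle replicate 2. Their summed level was 2.98 to 3.17 with vehicle and 3.65 to 4.20 with DES. Itgam, an integrin of myeloid cells, was at -3.51, -4.42, -4.55 and -4.05 with vehicle and at -1.79, -2.24, -1.55 and -1.43 with DES, a rise of 2.38 ± 0.26 (adjusted p = 0.000534), and the pan-leukocyte Ptprc rose by 0.54. Cd14 rose by 1.65 ± 0.15, whereas the neutrophil genes S100a8 and S100a9 were not called at 1.09 and 1.12, and the mast cell protease Mcpt4 fell by 0.96 ± 0.12. The part of leukocytes in the changes of interferon, cytokine and defence genes was not tested.

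Endothelial genes fell in 10 of 18 cases (55.6%), with 2 higher and 6 not called. Their summed level was 6.18 to 6.27 with vehicle and 5.67 to 5.91 with DES, and the median change of -0.38 stood beside -0.66 in WT, with 1 of 18 differences between the genotypes called, and 2 of 18 without WT vehicle replicate 4. Robo4, a receptor of vessels, was at 3.42, 3.27, 3.25 and 3.43 with vehicle and at 2.75, 2.76, 2.39 and 2.10 with DES, a change of -0.84 ± 0.15 (adjusted p = 0.0055). The VEGF receptor Kdr changed by -0.72 ± 0.13 with 16 of 19 probes of the same sign. With the array median as the scale 4 of the 18 genes were lower, and between 6 and 12 were lower in the fits without 1 array, with 6 without vehicle replicate 4 or DES replicate 3. The marker Pecam1 was not called at -0.13.

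Among 23 stromal genes 8 rose and 5 fell, and there were 5 higher without vehicle replicate 3 or 4 or DES replicate 2 or 3. Lum and Ogn, proteoglycans of the matrix, rose by 1.28 ± 0.13 and 1.42 ± 0.09, and versican (Vcan) and the transcription factor Hand2, which restrains epithelial growth in the uterus, fell by 1.14 ± 0.17 and 1.09 ± 0.22. Smooth muscle genes had 0 of 18 higher, 4 lower (22.2%, beside 12.7% of all genes) and 14 not called, so that their share of calls lay close to the 25.1% of all genes. Acta2 and Myh11 were not called at -0.04 and -0.19, against -0.74 and -1.45 in WT. Mesothelial genes rose in 5 of 10 cases, and their summed level was 5.47 to 5.69 with vehicle and 5.93 to 6.44 with DES. The 5 include the keratin Krt19, also listed above with simple epithelium, at 4.43 to 4.59 with vehicle and 5.16 to 5.80 with DES. Krt19 is a bright part of the sum, so the summed level is not particular to mesothelium. In this list Gpm6a rose by 0.86 and Bnc1 by 0.80, and Wt1 fell by 0.68. Calb2 was called higher with its brightest probe, but 2 of its 11 probes had that sign.

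Genes of tissues next to the uterus had few calls, and 25.1% of all genes were called, so these counts do not set the lists apart. Of 12 ovary and oocyte genes 1 rose and 1 fell: Ddx4, an RNA helicase of germ cells, was at -5.10, -4.81, -6.65 and -5.26 with vehicle and at -1.93, -1.69, -2.28 and -1.63 with DES, a rise of 3.57 ± 0.38 (adjusted p = 0.000464), while the oocyte genes Gdf9 and Zp3 were not called. Of 9 adipocyte genes 1 rose, the lipase Lipe at 2.38 ± 0.18 with 2 of 3 probes of the same sign, and Adipoq and Plin1 were not called. The median change of the adipocyte list was -1.02. Vehicle replicate 2 carried the high adipocyte signal given above, and without it the list had 2 genes higher and 2 lower with a median of -0.27. Without that array 3368 genes were called in the cKO comparison in place of 4304. Leaving out any 1 of the 8 arrays gave between 3203 and 3918 calls, so the lower number is not particular to vehicle replicate 2. Skeletal muscle genes had 1 of 14 higher and 1 lower, and red blood cell genes 0 of 5 higher and 1 lower, namely Slc4a1 at -1.48, a call that was lost in 3 of the 8 fits without 1 array. Gland-associated genes rose in 4 of 14 cases and fell in 2, and those that rose were Foxa2, Wfdc3, Cxcl15 and Fgl2. The rise of Wfdc3 rests on the brighter of 2 probes, and the other probe had the opposite sign, at -0.25.

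Genes with a strong WT response often changed in the same direction in cKO, by less. The counts that follow set cKO calls of the 8-array fit against WT calls of the 16-array fit. Of the 2439 genes raised at least 2-fold in WT (14.2% of all tested), 1170 (48.0%) were also higher in cKO, 975 (40.0%) were not called and 294 (12.1%) were lower. Of the 3078 genes lowered at least 2-fold in WT (18%), 935 (30.4%) were lower in cKO, 2013 (65.4%) were not called and 130 (4.22%) were higher. Of all genes tested, 12.4% were called higher and 12.7% lower in cKO in the 8-array fit. The 12.1% was thus close to the share of all genes, and the 4.22% was under it. With cKO calls taken from the 16-array fit too, 882 (36.2%) of the raised genes were higher in cKO, 1502 (61.6%) not called and 55 (2.26%) lower, and 531 (17.3%) of the lowered genes were lower in cKO, 2447 (79.5%) not called and 100 (3.25%) higher. Among genes not dim in any group, the cKO change was a median of 28.1% of the WT change for 2006 raised genes (interquartile range 3.48 to 47.4) and 19.4% for 2394 lowered genes (3.41 to 35.1). It reached at least 80% in 113 raised genes (5.63%) and 41 lowered genes (1.71%). Without WT vehicle replicate 4 the medians were 29.3% and 20.7%.

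**Figure D3:**
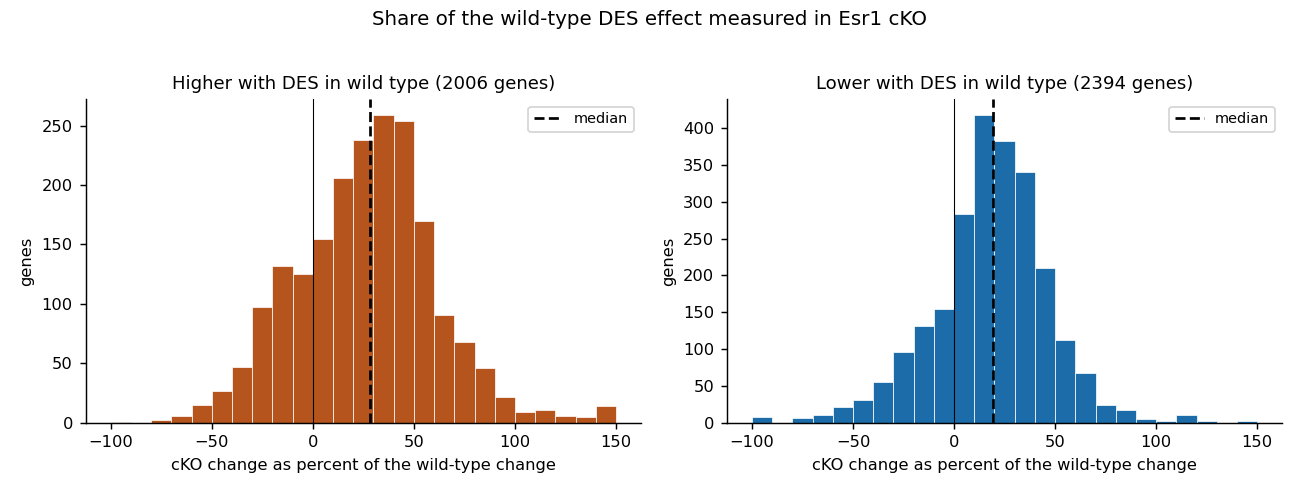
Histograms of the cKO change as a percent of the WT change, in bins of 10 points, for the genes raised (left, 2006 genes) and lowered (right, 2394 genes) at least 2-fold in WT and not dim in any of the 4 groups, with genes beyond the axis placed in the end bars. The dashed lines mark medians of 28.1% and 19.4% of the WT change.

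Seen from the cKO side, 584 of the 793 genes raised at least 2-fold (73.6%) were higher in WT too, 79 (9.96%) were lower there and 130 (16.4%) were not called. Of the 325 genes lowered at least 2-fold, 249 (76.6%) were lower in WT, 23 (7.08%) higher and 53 (16.3%) not called. Of all genes tested, 24.3% were higher and 34.3% lower in WT. Over all genes the difference between the genotypes was called for 6023 (35.1%), with the cKO change higher in 3452 (20.1%) and lower in 2571 (15%), and for 7589 (44.3%) without WT vehicle replicate 4. With scaling on the array median the share with the cKO change higher was 43.9% in place of 57.3%.

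**Figure D4:**
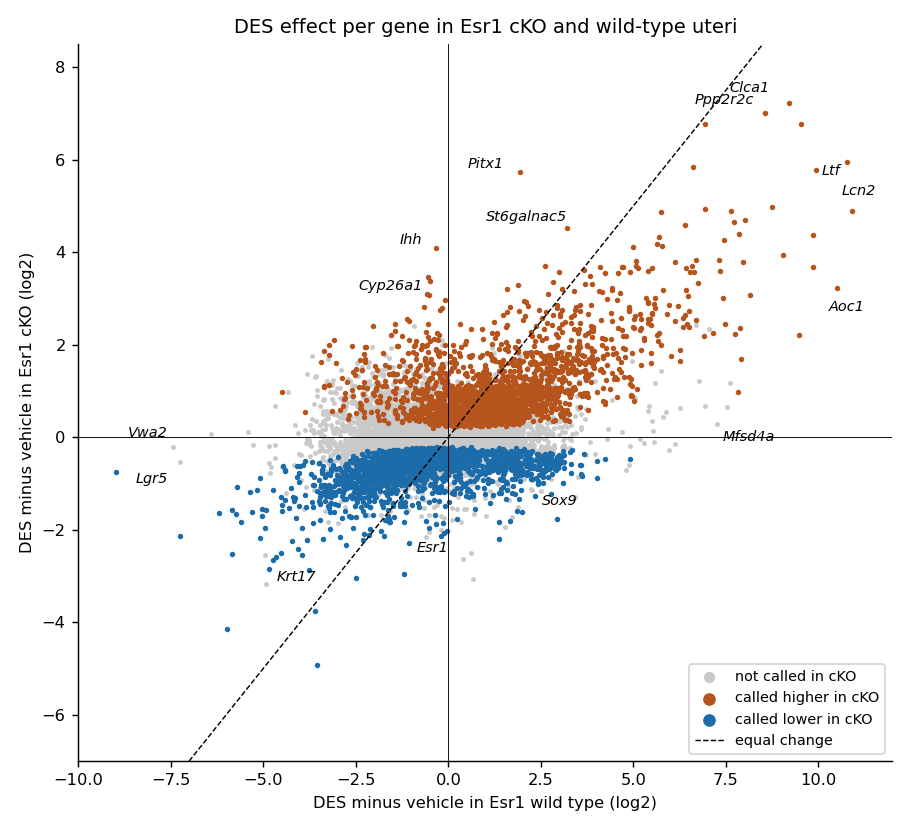
Change with DES (log2) of each of the 17145 genes in Esr1 WT (horizontal axis) and Esr1 cKO (vertical axis), coloured by the call in cKO, with fitted values also for dim genes and a dashed line at equal change. Most strongly changed genes lie between the horizontal axis and the dashed line, Pitx1 and St6galnac5 lie above it among raised genes, and Lgr5, Vwa2 and Mfsd4a lie near 0 in cKO.

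Some responses kept most of their WT size. Pcolce2, which enhances procollagen processing, was at -4.09, -4.02, -3.94 and -3.96 with vehicle and at 0.26, 0.79, 1.32 and 1.12 with DES in cKO. Its rise of 4.88 ± 0.21 (adjusted p = 1.00e-05) was 85.0% of the WT rise of 5.74. St6galnac5, a sialyltransferase, was at -5.51, -6.15, -6.01 and -6.04 with vehicle and at -2.08, -1.72, -0.63 and -1.16 with DES, and its rise of 4.53 ± 0.30 exceeded the WT rise of 3.22 by 1.32 ± 0.35 (adjusted p = 0.00945, and 0.012 without WT vehicle replicate 4). Prok2, a secreted prokineticin, rose by 3.61 ± 0.53 (adjusted p = 0.00211), 98.7% of the WT value, but its difference of -0.05 had a wide 95% interval of -2.0 to 1.9 and was -0.78 without WT vehicle replicate 4.

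Serpina1b, an alpha-1 antitrypsin of mouse with near-identical copies that its probe may also bind, rose by 4.10 ± 0.24 (adjusted p = 3.53e-05), and the difference of -0.89 from WT was called at an adjusted p of 0.0495 and not without WT vehicle replicate 4, at 0.0748. Serpinb11 differed by -0.16 (95% interval -1.50 to 1.18). Falls of at least 80% of the WT size included Anks1b, a scaffold protein of synapses, at -2.22 ± 0.14, Gabra2, a subunit of the GABA receptor, at -2.02 ± 0.27, and Efhd1, a calcium-binding protein of mitochondria, at -1.99 ± 0.18. Their differences from WT were 0.09 (95% interval -0.50 to 0.67), -0.21 (-1.21 to 0.78) and 0.13 (-0.75 to 1.01), so smaller differences than these intervals cannot be seen here. Without WT vehicle replicate 4 they were -0.05, 0.05 and 0.38. Cxcl5 and Wfdc18 kept 124% and 98.9% of their WT falls.

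Other genes responded strongly in WT and were not called in cKO. Mfsd4a, a transporter-like membrane protein, was at -3.68, -2.72, -3.45 and -3.64 with vehicle and at -3.53, -2.96, -2.91 and -3.01 with DES in cKO, and the groups overlapped. It rose by 7.25 in WT, so the difference was -6.97 ± 0.35 (adjusted p = 1.43e-08). Vwa2, an extracellular matrix protein, was at -0.14, 0.50, 0.51 and 0.54 with vehicle and at 0.41, -0.34, 0.20 and 0.32 with DES in cKO, and in WT it fell to dim levels, with a bound of -6.80. The difference for Vwa2 was 7.24 ± 0.30 as fitted (adjusted p = 2.99e-09).

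Lgr5, a receptor of R-spondins found on stem cells and on the forming uterine glands, was at -0.41, 0.51, 0.56 and 0.38 with vehicle and at 0.28, -0.52, -0.60 and -0.28 with DES in cKO. These groups overlapped, and the change of -0.54 ± 0.26 was not called (adjusted p = 0.177), against -7.26 in WT and a difference of 6.72 ± 0.41 (adjusted p = 7.29e-08). G6pc2, a glucose-6-phosphatase subunit, changed by 0.06 in cKO and by -6.41 in WT. The secretoglobin Scgb3a1 and the organic anion carrier Slco4a1 rose by 7.53 and 6.93 in WT, and their cKO changes of 0.66 and 0.67 were not called (adjusted p = 0.404 and 0.075). Lypd8, Cuzd1 and Trex2, dim in 1 or 2 of the groups, belong to the same set, with WT rises of at least 6.38, 3.48 and 3.34. Trhde and Actrt2 fell in WT to dim levels with bounds of -3.63 and -2.44 and Them5 fell by 4.69, and none of the 3 was called in cKO. Actrt2 was already low with vehicle in cKO, at -5.61, -7.73, -8.91 and -8.25, against -4.46 to -3.26 in WT. Replicates 2 to 4 of that cKO group lay under the floor of signal, so a fall of Actrt2 in cKO could hardly be measured.

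A response of at least 2-fold that was called in cKO and not in WT was found in 183 genes, and in 98 of them the difference between the genotypes was also called. Without WT vehicle replicate 4 these counts were 181 and 109. Ihh, the Indian hedgehog ligand through which uterine epithelium signals to stroma, was at -8.58, -7.95, -7.32 and -7.72 with vehicle and at -3.96, -3.86, -4.04 and -3.39 with DES in cKO. It was dim with vehicle and rose by at least 2.32 (adjusted p = 4.85e-05) with all 11 probes of the same sign. In WT it was at -5.49, -6.26, -5.94 and -5.93 with vehicle and at -5.86, -5.89, -6.85 and -6.34 with DES, and the groups overlapped. The fitted difference was 4.41 ± 0.39 (adjusted p = 1.26e-06), and the vehicle levels were lower in cKO than in WT and under the floor of signal.

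**Figure D5:**
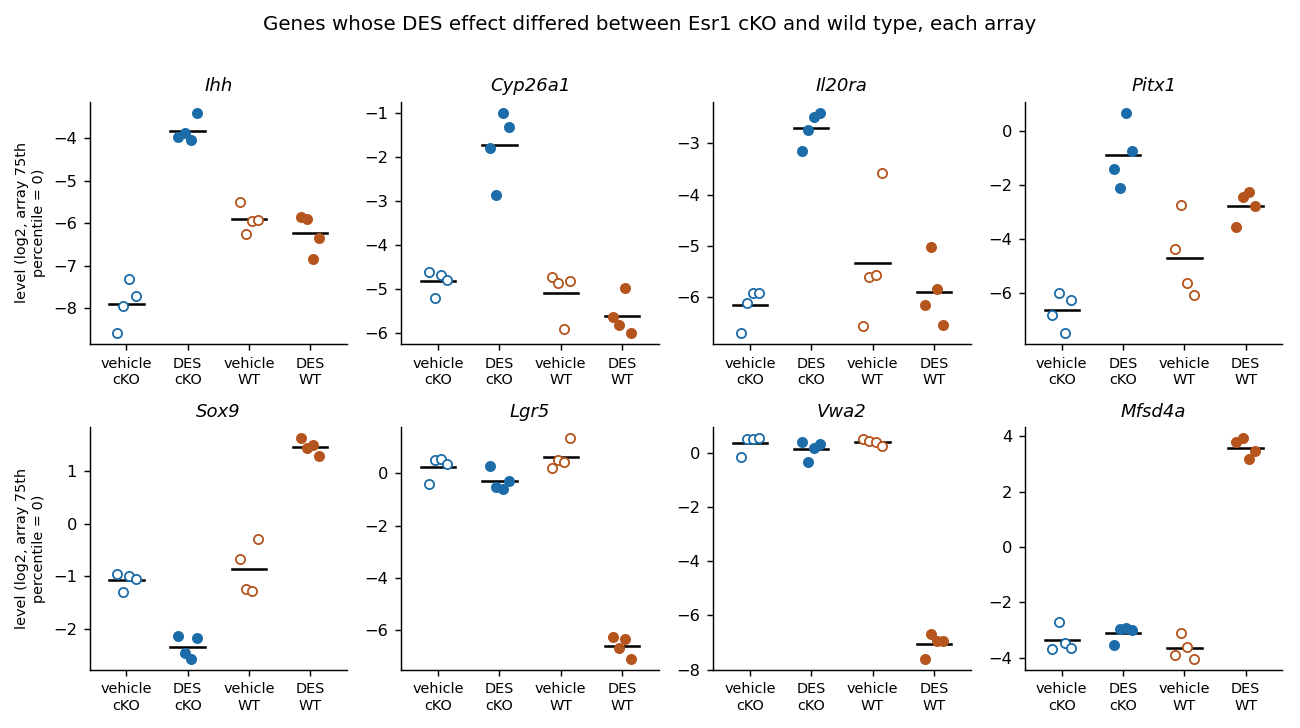
Levels (log2, 0 is the 75th percentile of the array) of 8 genes in each array of the 4 Esr1 line groups, with open points for vehicle, filled points for DES and a bar for the mean of 4 arrays. Ihh, Cyp26a1 and Il20ra are higher with DES in the cKO arrays, Sox9 moves down in cKO and up in WT, and Lgr5, Vwa2 and Mfsd4a move in the WT arrays.

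Cyp26a1, which degrades retinoic acid, was at -4.60, -5.19, -4.68 and -4.78 with vehicle and at -1.79, -2.85, -0.99 and -1.31 with DES in cKO, a rise of 3.08 ± 0.37 (adjusted p = 0.000874). In WT its change was -0.53 and not called, and the difference was 3.61 ± 0.51 (adjusted p = 8.97e-05). Il20ra, a subunit of the interleukin 20 receptor, was at -6.69, -6.10, -5.92 and -5.91 with vehicle and at -3.14, -2.74, -2.49 and -2.40 with DES in cKO. It rose by 3.46 ± 0.22 (adjusted p = 4.71e-05). Its difference from WT was 4.02 ± 0.68 (adjusted p = 0.000387), and 3.44 without WT vehicle replicate 4. Meig1 and Atp10b were dim with vehicle and rose by at least 0.98 and 0.66, and Fam183b rose by 2.82 with a call that was lost in 4 of the 8 fits without 1 array.

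Genes called in opposite directions at 2-fold or more in cKO numbered 102, and 98 without WT vehicle replicate 4. Sox9, a transcription factor of developing glands, was between -1.29 and -0.95 with vehicle and between -2.57 and -2.14 with DES in cKO, with no overlap and all 13 probes of the same sign. It fell by 1.27 ± 0.13 (adjusted p = 0.000371) in cKO and rose by 2.33 in WT, and the difference was -3.60 ± 0.28 (adjusted p = 3.93e-07). Gja3, a gap junction protein, rose by 2.55 ± 0.26 in cKO and fell by 1.11 in WT, with 1 of its 2 probes of that sign in cKO. Gtf2a1l, Gsdma2, Gabrr2 and Cldn18 rose in cKO by at least 0.81, 0.73, 0.26 and 0.77 and were called lower in WT (Cldn18 not without WT vehicle replicate 4, adjusted p = 0.0618), and Erich6b was called lower in cKO with a bound of -0.33 and higher in WT. All 5 lie near the floor of signal.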

How the data were processed

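Total RNA of 32 mouse uteri was labelled with Cy3 and hybridised to single-colour Agilent arrays, which were read with Agilent Feature Extraction version 12, per the submitters' processing notes. The values used are the deposited intensity of each of 45018 probes per array, and the background correction behind them is not given in the sources used here. No table column lacked a sample (0 columns).

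Each array was put on the log2 scale and centred on its 75th percentile. Probes above the 30th percentile of their array in at least 4 of the 32 arrays were kept (36657), and the brightest kept probe by mean over all arrays stood for its gene. A single gene symbol was given for 33653 probes, more than 1 for 56 and no symbol for 11309. Of the 33653, 33517 were matched to RefSeq by gene identifier and carry the RefSeq symbol, changed or not. This left 17145 genes.

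DES and vehicle were compared in cKO with limma 3.58.1 (R 4.3.3) on the 8 cKO arrays alone, because arrays of other groups stood apart and would have set the spread. The WT response and the difference between the genotypes came from 1 fit of the 16 Esr1 line arrays. P-values were adjusted by Benjamini-Hochberg over all genes, and the code was tested on simulated data. Nothing in the sources used here says that replicates came from separate litters, so p-values measure the spread between these samples, and the number of arrays limits the precision. Where a gene was dim in 1 group, its bound sets the other group's mean against the floor.

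Genes were named by rule: the 3 genes targeted in the series, the largest changes without overlap (at most 12 in each direction), up to 4 called members of each of 28 lists, and up to 6 per set of kept, lost, opposite and cKO-limited responses. Further list members were named after their values were seen. The members and lists were chosen with earlier results of these data known. Alternatives were other array sets, scalings, filters, probe summaries, thresholds, array weights, a replicate block and each array left out. List counts without WT vehicle replicate 4, and kept and lost counts with all calls from 1 fit, were added after the data were seen. Promoter windows came from RefSeq (GRCm38.p6), and 112 of the 144 genes named by rule had one. Python 3.11.15, pandas 2.3.3 and matplotlib 3.10.9 were used.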

Additional observations from a re-analysis of the deposited data

Results flagged for a closer look

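In 23 of 288 groups of 4 arrays examined for the genes named by rule, 1 array lay far from the other 3, by a criterion that chance meets in about 1 of 20 groups. Among raised genes, DES cKO replicate 1 was low at -1.93 for Unc5cl, -3.54 for Fam3b, 4.66 for Cbr2, -0.23 for Me1 and -7.57 for Atp10b, and also at -3.53 for Mfsd4a. DES cKO replicate 4 was high at -1.85 for Trdn, -3.18 for Thrb and -1.23 for Ifit3, and low at 0.69 for Bmp7 and -0.15 for Vcan. DES cKO replicate 2 was high at -7.17 for Qrfpr. Vehicle cKO replicate 2 was high at -1.16 for Hp, -0.35 for Me1 and -4.92 for Erich6b, and low at -0.09 for Kif11. Vehicle cKO replicate 1 was high at -3.98 for Islr2 and low at -0.14 for Vwa2. Vehicle cKO replicate 3 was high at -4.63 for Lypd8 and -2.11 for Them5, and vehicle cKO replicate 4 was high at -4.14 for Scgb3a1 and 0.51 for G6pc2 and low at -2.14 for Ifi47.

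With the difference between the genotypes also called, 334 genes were called lower with DES in cKO and higher in WT, and 198 the reverse. The direction came from the 8-array fit in cKO and the 16-array fit in WT, and was not itself tested. With cKO calls from the 16-array fit, opposite calls went from 294 to 55 among genes raised at least 2-fold in WT. Among those lowered at least 2-fold in WT they went from 130 to 100. With scaling on the array median, all lower calls in cKO went from 2177 to 1227 and higher calls from 2127 to 2563. Among 7290 kept probes without a single gene symbol, which enter no comparison above, 1562 (21.4%) were called in cKO, 399 higher and 1163 lower.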

How the results depend on the processing

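The 4304 calls in cKO became 1539 in a fit of all 32 arrays, 2231 in a fit of the 16 Esr1 line arrays, 2120 at an adjusted p under 0.01 and 1118 with a change of at least 2-fold as well. They became 5243 with array weights, 4558 with trend and robust variance, 4517 with the mean of a gene's probes, 4385 with an offset, 4261 with quantile normalization, 4157 with no filter, 3801 with a filter at the array median, 3790 with scaling on the array median and 3545 in all arrays without the 2 that stand apart. The 2-fold limit gave 5517 calls in WT and 3997 for the difference between the genotypes, which had 3777 at an adjusted p under 0.01. Leaving out genes dim in either cKO group, an alternative chosen after seeing the data, gave 4112 calls in cKO. With 1 array left out the calls ranged from 3203 to 3918 in cKO, from 9145 to 11084 in WT and from 5261 to 7589 for the difference. Of the 132 genes named by rule and called in cKO, 120 stayed called with each array left out, and 105 stayed called under every alternative except the stricter thresholds.

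Values near 0 changed sign. The difference of Anks1b was -0.0517 without the 2 arrays that stand apart, -0.0893 with quantile normalization and -0.073 with scaling on the array median, and that of Wfdc18 was -0.256, -0.0663 and -0.135 under these settings, -0.0808 with the mean of a gene's probes and -0.334 with array weights. For Gabra2 it was 0.0547 without the 2 arrays, 0.40 with the mean of probes and 0.24 with array weights, for Efhd1 -0.0264 with median scaling, and for Lamp5 0.13 with array weights. The cKO change was 0.00202 for Trex2 with quantile normalization, 0.15 for Cuzd1 with array weights, and -0.50 for Calb2 and 0.67 for Myog with the mean of probes. The median change of the growth factor list was 0.00143 with quantile normalization and 0.0205 with median scaling, that of the receptor list -0.0208 with the mean of probes, and that of the adipocyte list 0.27 with a filter at the array median. The cause was not tested.

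With 1 array left out, the difference ranged from -0.78 to 0.34 for Prok2, -0.26 to 0.31 for Wfdc18, -0.42 to 0.11 for Lamp5, -0.0517 to 0.25 for Anks1b, -0.529 to 0.0547 for Gabra2, -0.811 to 0.00951 for Islr2, -0.67 to 0.13 for Serpinb11 and -0.0872 to 0.384 for Efhd1. The cKO change ranged from -0.058 to 0.261 for Trhde, -0.63 to 0.27 for Cuzd1 and -0.12 to 0.25 for G6pc2, and the median of the receptor list from -0.041 to 0.0724.

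Replicates share numbers across groups. The gene deviations of same-numbered cKO arrays correlated at -0.0098, 0.01, 0.092 and 0.034. These values cannot tell whether same-numbered samples shared a litter, slide or day. The highest intensity of an array was lowest in replicate 4 of each Esr1 line group. It was 343192 to 355210 there, against 390255 to 498396 in replicates 1 to 3. What the replicate numbers stand for was not tested. With a replicate block 3237 genes were called in cKO. Signal near the floor limits the genes given as bounds.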
